A study of Homo sapiens and Mus musculus with 21 samples.

Results

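RNA of CUTLL1, a long-established human cell line of T-cell acute lymphoblastic leukemia (T-ALL), was sequenced with 2 different hairpins against DHX15, and the RNA profiles of these hairpins, shDHX15-2 and shDHX15-1, are set directly against each other here. The 6 libraries, 3 with each hairpin, were chosen by their labels from the 21 samples of the series; 3 libraries with a control hairpin against GFP (shGFP) give the shared reference level. Of 19848 genes in the deposited RPKM table (read counts divided by the length of the gene and the size of the library), 14841 had at least 1 RPKM in at least 3 of the 6 hairpin libraries and were tested.

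DHX15 is a DEAH-box RNA helicase that is switched on by proteins with a G-patch. It takes part in the disassembly of spliceosomes and in the maturation of ribosomal RNA precursors. A short hairpin RNA is processed into a small guide that directs Argonaute proteins to complementary stretches of a messenger RNA, which is then degraded. Setting 2 hairpins against each other asks which transcripts differ between cells in which the same target is lowered.

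All 9 shRNA libraries came from the same line after infection with lentivirus, from poly(A)+ RNA read as 150 bp pairs, per the labels. No drug, sorting or genotype distinguishes the groups; they share the line, the medium and the viral delivery, and differ by label in the hairpin alone. The hairpin sequences, the time after infection and the strand setting of the counting are not given in the sources used. Nothing says whether the replicates were grown as separate cultures, and the spread behind each p-value may therefore be a technical one. The library totals recovered from the RPKM values were 59702150 to 62568236 reads in the 6 hairpin libraries. Replicates differed by more than sampling noise, with a chi-square of 2.78 to 3.77 per degree of freedom, and all were kept. The T-ALL identity was checked with 10 markers, of which 9 were in the table: CD3D averaged 303, 269.5 and 257 RPKM and CD7 143, 102 and 56.8 RPKM with shDHX15-2, shDHX15-1 and shGFP, while the recombinase gene RAG1 was low throughout, at 0.752, 0.970 and 0.575 RPKM.

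DHX15 RNA was lowered to nearly the same level by both hairpins. It measured 16.1, 16.5 and 16.8 RPKM with shDHX15-2, 17.1, 17.3 and 16.5 RPKM with shDHX15-1, and 42.8, 44.1 and 43.2 RPKM with shGFP. The ranges of the hairpins overlapped, and both lay far below the shGFP libraries, at 38.0% of the shGFP mean with shDHX15-2 and 39.1% with shDHX15-1. The difference on the log2(RPKM + 1) scale was −0.04, with a 95% interval of −0.11 to 0.02, that is 0.930 to 1.017 in terms of fold (limma, Benjamini-Hochberg adjusted p = 0.237). A two-sided exact permutation test of the means gave p = 0.2, where 0.1 is the smallest p that 3 against 3 libraries allow. The sign of this small difference turned positive under 3 other scalings, given at the end.

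Against that near-equal DHX15 level, most of the transcriptome differed measurably between the hairpins, but by little. At a Benjamini-Hochberg adjusted p under 0.05, limma called 9246 of 14841 genes (62.3%), 3524 higher with shDHX15-2 (23.7%) and 5722 lower (38.6%). The median absolute difference over all genes was 0.17 on the log2(RPKM + 1) scale, and the central 90% of genes lay between −0.51 and 0.37. Replicates of a hairpin had a median SD of 0.042 and 0.043 on that scale with shDHX15-2 and shDHX15-1, so small differences passed the test. On this scale, which understates differences of low genes, at least 2-fold was reached by 67 called genes (0.451%), 35 higher and 32 lower. At least 1.5-fold was reached by 646, 209 higher and 437 lower. With edgeR and DESeq2 on the recovered reads, 243 and 239 genes were called with at least 2-fold. The balance of directions depended on scaling: higher genes made up 38.1% of the calls as deposited, 53.7% after median-centring, 50.8% after quantile normalisation, 50.1% with edgeR and 50.7% with DESeq2 on the recovered reads.

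The direction varied with the RNA level. Among the 3711 genes with the lowest RPKM, 9.43% were called higher with shDHX15-2 and 40.2% lower, and the median difference was −0.13. Among the 3710 with the highest levels, 41.6% were called higher and 32.6% lower, and the median was 0.03. Protein-coding genes in RefSeq had 27.3% higher and 39.1% lower calls, and long noncoding RNAs 15.6% and 41.2%. Of 211 transcribed pseudogenes 16 were higher and 107 lower. Antisense transcripts by symbol showed the same tilt, with 40 higher and 144 lower of 331 tested, although the counting may not separate them from the gene on the other strand. These classes also differ in level, and the part of level in the class figures was not tested.

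**Figure D1:**
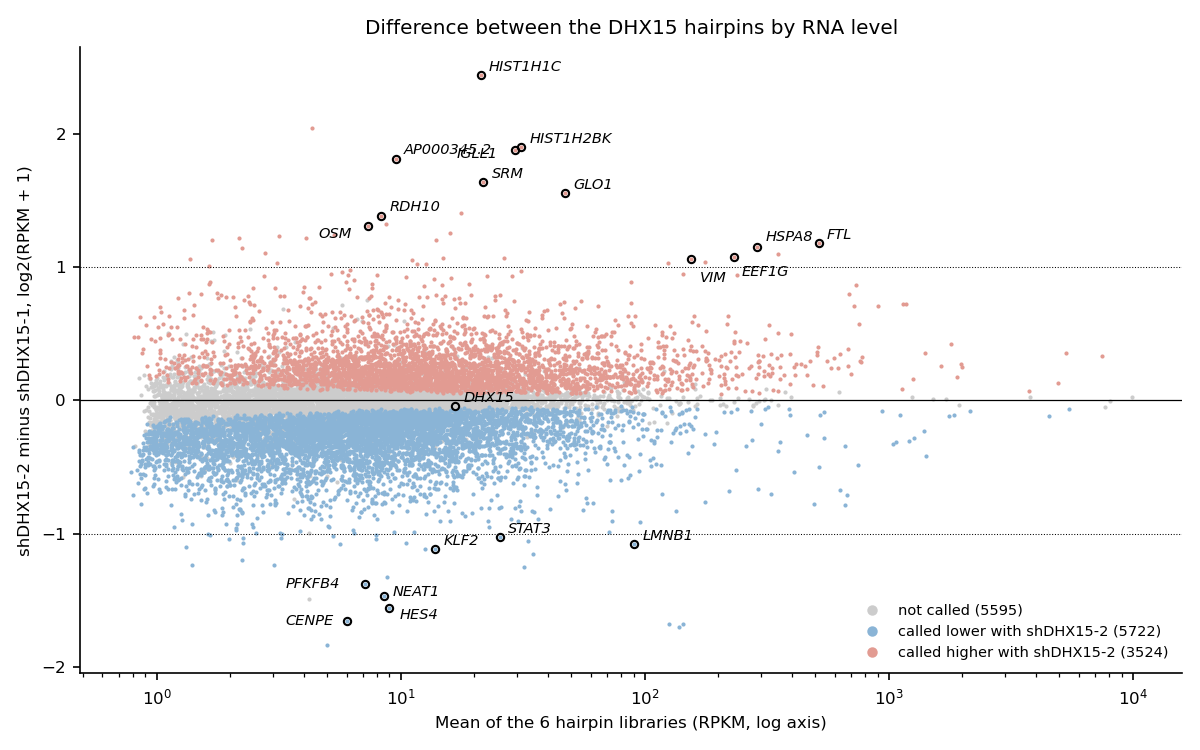
The difference between shDHX15-2 and shDHX15-1 on the log2(RPKM + 1) scale (vertical axis) is plotted against the mean RPKM of the 6 hairpin libraries (log axis) for 14841 genes, with called genes in red or blue and dotted lines at 2-fold. Most points lie within 2-fold, 67 called genes lie beyond it, and DHX15 sits close to 0.

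For the 67 genes called with at least 2-fold, the shGFP libraries showed on which side of the control each hairpin lay. Of the 35 higher genes, all 3 shGFP values lay between the hairpins for 21, above both for 5 and below both for 4, and overlapped a hairpin for 5. Of the 32 lower genes, they lay between the hairpins for 12, below both for 8 and above both for 0, and overlapped a hairpin for 12. The hairpins share these shGFP libraries, and the counts describe positions without a test. These genes were picked for a wide gap between the hairpins, which leaves more room for shGFP to lie between them. The same shares over all genes tested were not computed, so the counts cannot be called high or low.

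Several abundant transcripts were far lower with shDHX15-1 than in either other group. GLO1, the glyoxalase that detoxifies methylglyoxal, had 71.6, 69.8 and 70.8 RPKM with shDHX15-2, 23.1, 23.5 and 23.6 RPKM with shDHX15-1, and 78.3, 76.8 and 76.5 RPKM with shGFP. Only the shDHX15-1 libraries were low; the difference was 1.55 ± 0.018 (SE; limma, Benjamini-Hochberg adjusted p = 6.00e-08), a ratio of 3.02. FTL, the light chain of the iron store ferritin, had 709.5, 714 and 724 RPKM with shDHX15-2, 323, 304 and 318 RPKM with shDHX15-1, and 705, 707 and 665 RPKM with shGFP. Its shDHX15-2 and shGFP levels lay close together, and shDHX15-2 exceeded shDHX15-1 by 1.18 ± 0.025 (SE; limma, Benjamini-Hochberg adjusted p = 4.74e-07). The gene of the translation elongation factor subunit EEF1G had 313, 315 and 314 RPKM with shDHX15-2, 149, 148 and 148 RPKM with shDHX15-1, and 305, 302 and 296 RPKM with shGFP. The difference of 1.08 ± 0.013 (SE; limma, Benjamini-Hochberg adjusted p = 6.00e-08) again came with shDHX15-1 below both other groups. VIM, the intermediate filament protein vimentin, had 209, 211 and 209 RPKM with shDHX15-2, 102, 98.3 and 101 RPKM with shDHX15-1, and 193, 195 and 192 RPKM with shGFP. Its difference was 1.06 ± 0.017 (SE; limma, Benjamini-Hochberg adjusted p = 2.46e-07), and the overlapping VIM-AS1 moved with it (1.04), so that the reads of this pair may not be separable.

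The same shape appeared at lower levels. RDH10, a retinol dehydrogenase, averaged 12.5, 4.16 and 12.7 RPKM with shDHX15-2, shDHX15-1 and shGFP. GLTP, which transfers glycolipids between membranes, averaged 12.9, 4.57 and 13.7 RPKM in that order, and the cytokine gene OSM (oncostatin M) 10.9, 3.80 and 9.02 RPKM. Their differences were 1.39, 1.32 and 1.31 (limma, Benjamini-Hochberg adjusted p = 1.26e-06, 4.20e-07 and 1.08e-05). UBE2Q1, a ubiquitin-conjugating enzyme, averaged 15.3, 6.86 and 13.6 RPKM, and its antisense entry UBE2Q1-AS1 22.9, 9.05 and 20.7 RPKM, with differences of 1.05 and 1.26; their reads may also be shared. Among entries known by clone names, RP11-124N14.3 averaged 479, 223 and 441 RPKM and AE000661.50 20.5, 9.28 and 25.99 RPKM.

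Other transcripts were low with shDHX15-2 alone. CENPE, the kinesin that links kinetochores to microtubules in mitosis, had 2.60, 2.34 and 2.26 RPKM with shDHX15-2, 9.43, 9.94 and 9.75 RPKM with shDHX15-1, and 7.45, 8.06 and 8.41 RPKM with shGFP. Every shDHX15-2 library lay under every other library, and the difference was −1.66 ± 0.045 (SE; limma, Benjamini-Hochberg adjusted p = 1.33e-06). LMNB1, the nuclear lamina protein lamin B1, had 58.4, 57.7 and 57.6 RPKM with shDHX15-2, 124, 121 and 124 RPKM with shDHX15-1, and 126, 116 and 128 RPKM with shGFP. Here shDHX15-1 and shGFP overlapped, and shDHX15-2 was lower than shDHX15-1 by a log2 difference of −1.08 ± 0.016 (SE; limma, Benjamini-Hochberg adjusted p = 1.66e-07). STAT3, a transcription factor of cytokine signalling, had 16.5, 16.5 and 16.5 RPKM with shDHX15-2, 34.01, 35.1 and 34.7 RPKM with shDHX15-1, and 33.9, 33.7 and 34.1 RPKM with shGFP. It followed the LMNB1 shape, with a difference of −1.02 ± 0.019 (SE; limma, Benjamini-Hochberg adjusted p = 3.58e-07). STAT3 lies outside the 15 largest falls and was chosen after its values were seen.

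KLF2, a transcription factor of T cell quiescence and trafficking, averaged 8.36, 19.3 and 24.4 RPKM with shDHX15-2, shDHX15-1 and shGFP, a hairpin difference of −1.12. HADHB, the beta subunit of the mitochondrial trifunctional protein, averaged 7.61, 17.6 and 13.1 RPKM in the same order and ECH1, an isomerase of unsaturated fatty acids, 21.3, 45.2 and 39.3 RPKM. Their differences were −1.11 and −1.05 (limma, Benjamini-Hochberg adjusted p = 3.18e-06 and 2.79e-06). In both genes shGFP lay between the hairpins. The mitotic kinesin gene KIF20B averaged 6.45, 14.6 and 10.3 RPKM and the centrosomal anchoring protein gene AKAP9 1.41, 4.66 and 2.68 RPKM, also with shGFP between the hairpins. ECH1, KIF20B and AKAP9 were likewise picked after their values were seen.

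**Figure D2:**
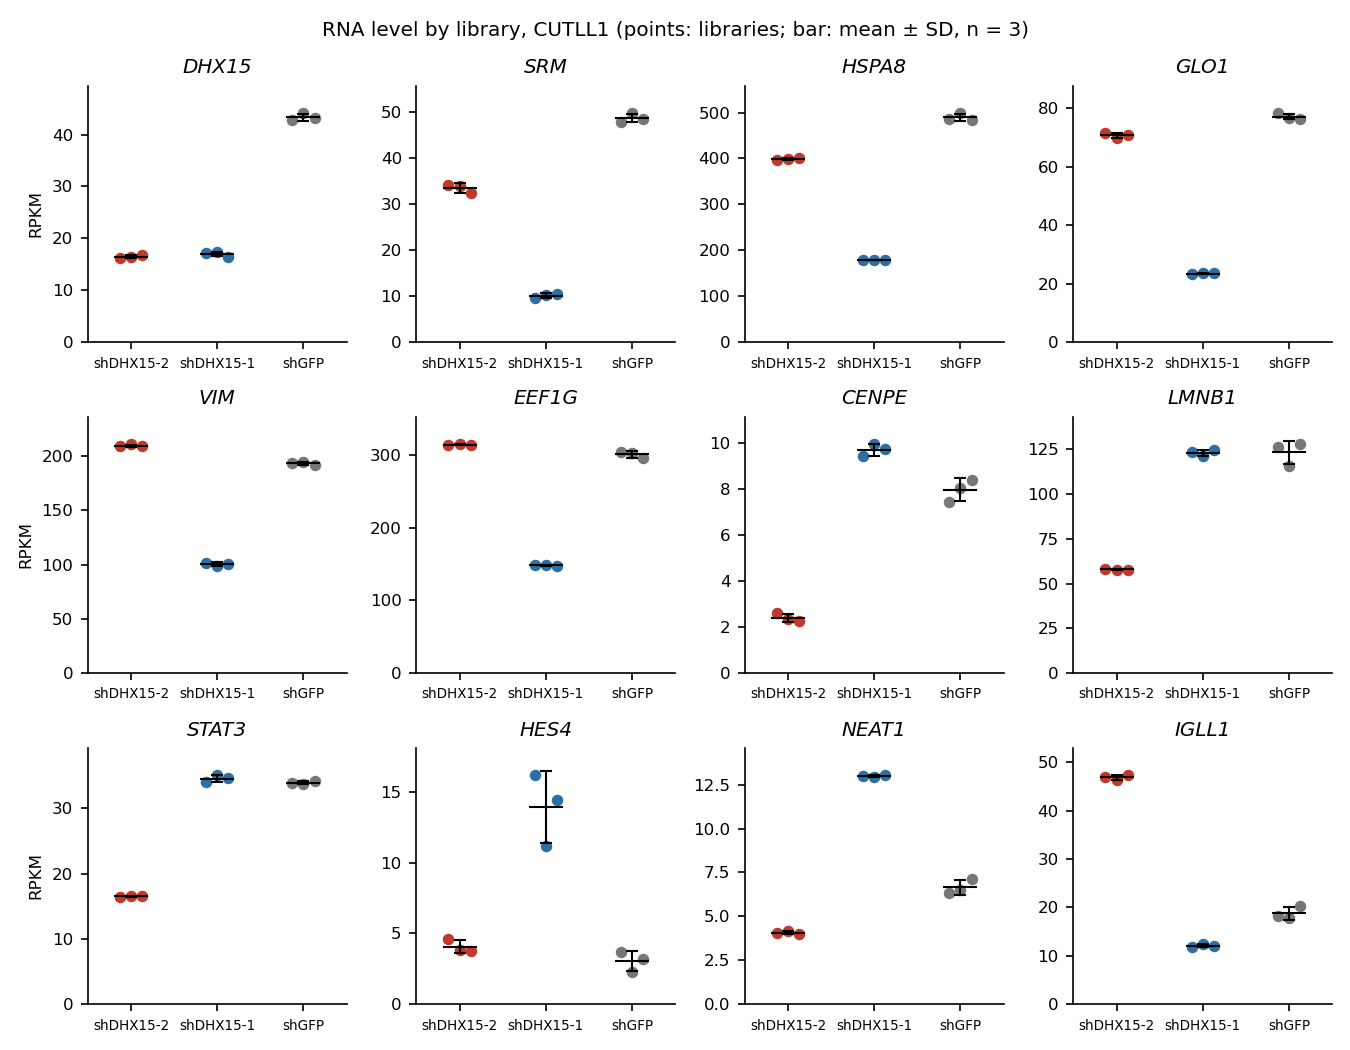
RPKM of 12 genes in each of the 9 shRNA libraries (points), with the mean ± SD of each group (bars; n = 3), in groups shDHX15-2, shDHX15-1 and shGFP from left to right. DHX15 is alike with both hairpins, GLO1, VIM and EEF1G are low with shDHX15-1, and CENPE, LMNB1 and STAT3 are low with shDHX15-2.

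In a further group shGFP also lay strictly between the hairpins, as it did for VIM, EEF1G and CENPE above. NEAT1, the long noncoding RNA that builds nuclear paraspeckles, had 4.06, 4.17 and 3.98 RPKM with shDHX15-2, 13.01, 12.9 and 13.03 RPKM with shDHX15-1, and 6.33, 6.51 and 7.13 RPKM with shGFP. It was lower with shDHX15-2 by −1.46 ± 0.026 (SE; limma, Benjamini-Hochberg adjusted p = 3.42e-07), lying under shGFP with shDHX15-2 and over it with shDHX15-1. The table also lists NEAT1_1, NEAT1_2 and NEAT1_3, with differences of −1.68, −1.68 and −1.70; by symbol they belong to NEAT1 and may share its reads, so they are no separate evidence. All 5 tested transcripts of the list of nuclear retained RNAs were lower with shDHX15-2, with a median of −0.38, and 3 further listed RNAs in the table were under the filter. MALAT1, the abundant nuclear speckle RNA, averaged 16.4, 29.5 and 25.8 RPKM with shDHX15-2, shDHX15-1 and shGFP, a hairpin difference of −0.81.

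IGLL1, a surrogate immunoglobulin light chain of precursor lymphocytes, had 47.01, 46.4 and 47.3 RPKM with shDHX15-2, 11.8, 12.4 and 11.9 RPKM with shDHX15-1, and 18.1, 17.8 and 20.3 RPKM with shGFP. Its difference of 1.88 ± 0.023 (SE; limma, Benjamini-Hochberg adjusted p = 6.01e-08) was among the largest of all genes. The unannotated entry AP000345.2 averaged 15.4, 3.66 and 5.84 RPKM in the same order and differed by 1.82.

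In 4 of the 35 genes higher by at least 2-fold, among them CD244 and PRSS57, both hairpins lay above shGFP and shDHX15-2 highest. CD244, a receptor of natural killer and T cells, averaged 36.3, 16.8 and 5.28 RPKM with shDHX15-2, shDHX15-1 and shGFP, and the serine protease gene PRSS57 19.8, 8.04 and 5.17 RPKM. Their hairpin differences were 1.07 and 1.20 (limma, Benjamini-Hochberg adjusted p = 1.04e-06 and 2.44e-06). The junctional adhesion protein gene JAM3 also lay above shGFP with both hairpins, but highest with shDHX15-1, and averaged 21.2, 48.3 and 15.00 RPKM, a difference of −1.15.

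Some of the largest falls rest on uneven libraries or on repeated sequence. RP11-258C19.4 had 1.71, 1.54 and 1.55 RPKM with shDHX15-2, 6.80, 7.59 and 10.9 RPKM with shDHX15-1, and 1.59, 4.31 and 1.34 RPKM with shGFP, a difference of −1.83 ± 0.15 (SE; limma, Benjamini-Hochberg adjusted p = 6.82e-05); its hairpin groups did not overlap, but 1 shGFP library stood above the other two. AC009121.1 had 24.7, 13.4 and 17.9 RPKM with shDHX15-2, 54.7, 35.7 and 44.8 RPKM with shDHX15-1, and 27.1, 4.19 and 6.14 RPKM with shGFP. Its difference of −1.25 ± 0.23 (SE; limma, Benjamini-Hochberg adjusted p = 0.00292) lost its call when all 9 shRNA libraries set the spread (adjusted p = 0.0735; 0.0117 was the highest of its other limma alternatives). RN7SKP169, by its symbol a 7SK pseudogene with many near-identical copies, averaged 4.70, 12.9 and 6.86 RPKM and is uncertain. RP11-261C10.4 averaged 3.25, 7.99 and 5.31 RPKM, with a difference of −1.07.

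Replication-dependent histone genes, which package newly made DNA and whose transcripts normally end in a stem-loop without a poly(A) tail, were higher with shDHX15-2. The linker histone gene HIST1H1C had 36.3, 37.1 and 36.4 RPKM with shDHX15-2, 6.03, 5.92 and 5.88 RPKM with shDHX15-1, and 11.3, 13.4 and 12.4 RPKM with shGFP. Its difference of 2.44 ± 0.021 (SE; limma, Benjamini-Hochberg adjusted p = 2.83e-08) was the largest of all 14841 genes on the log2(RPKM + 1) scale, and the 3 groups did not overlap. By ratio of means HIST1H2AC was larger, at 7.01 against 6.16 for HIST1H1C. HIST1H2BK had 51.4, 47.9 and 49.8 RPKM with shDHX15-2, 12.04, 13.04 and 12.6 RPKM with shDHX15-1, and 36.5, 35.7 and 32.1 RPKM with shGFP, a difference of 1.90 ± 0.037 (SE; limma, Benjamini-Hochberg adjusted p = 3.78e-07). HIST1H2AC averaged 7.62, 1.09 and 2.73 RPKM with shDHX15-2, shDHX15-1 and shGFP, and HIST1H4K 26.2, 9.26 and 11.3 RPKM. HIST1H2BJ, at 3.45, 0.909 and 1.51 RPKM, also had its shGFP mean between those of the hairpins.

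The table holds 73 replication-dependent histone symbols, of which 32 passed the filter on low values, 27 of them called higher and 0 lower; 6 of the 32 passed through shDHX15-2 alone and so had to differ. With no filter 43 of 70 genes with any read were called higher and 0 lower, and all 5 with a mean of at least 5 RPKM were higher. HIST1H4C, at 1.28 RPKM with shDHX15-2, 1.22 with shDHX15-1 and 0.777 with shGFP, was not called. Symbols of this family were gathered after values were seen, its members are near-identical copies whose reads may be split, and the libraries were made from poly(A)+ RNA, which catches these transcripts poorly.

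**Figure D3:**
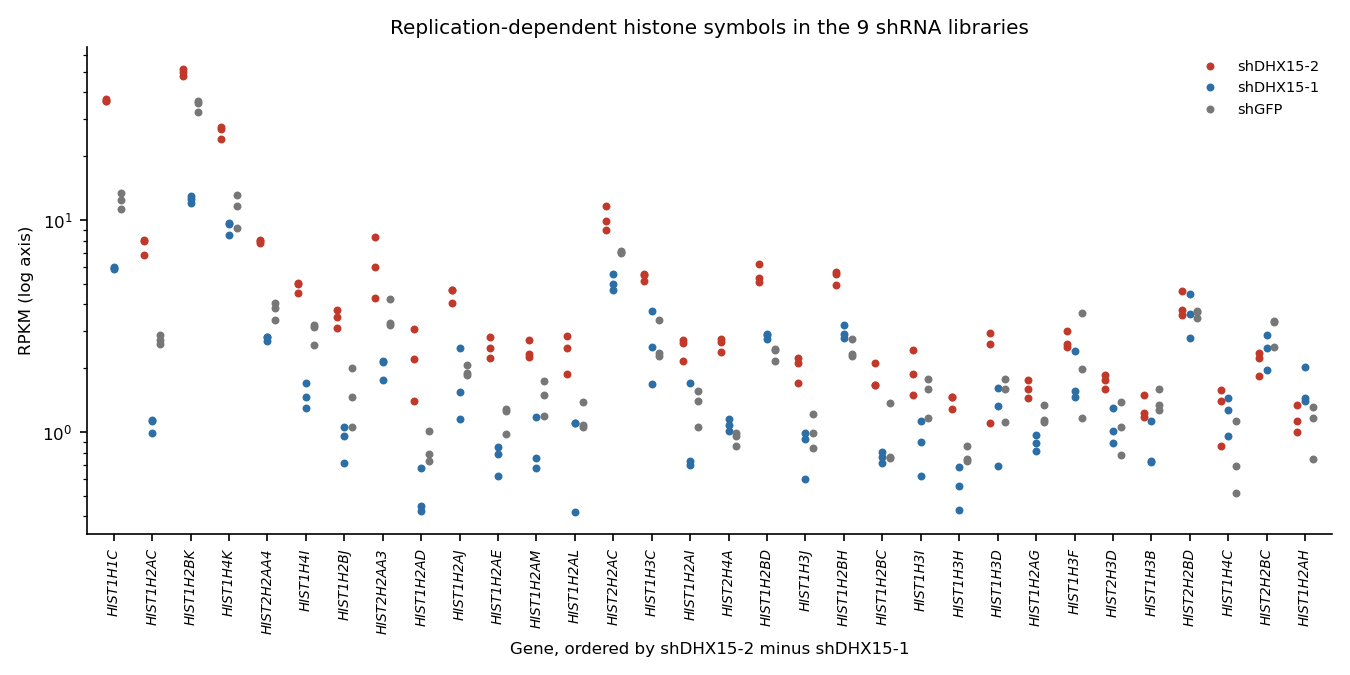
RPKM (log axis) of the 32 tested replication-dependent histone genes in 9 shRNA libraries, 3 points per group, ordered by the difference between the hairpins. The shDHX15-2 points lie above the shDHX15-1 points for most genes, led by HIST1H1C, and the groups meet at the right end.

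The gene lists described next hold 1128 symbols in 49 lists, of which 1022 were in the table and 975 were tested. Each count is read against the 23.7% of all genes called higher with shDHX15-2 and the 38.6% called lower, and each median against −0.06 over all genes. These shares varied with RNA level: of the 3710 genes with the highest levels, 41.6% were called higher and 32.6% lower. Lists of abundant genes are to be read against those shares as well. The part of level in the list counts was not tested. In the lists of endoplasmic reticulum chaperones and of p53 targets 1 member each passed the filter through shDHX15-1 alone, and in the fixed histone list 1 through shDHX15-2 alone, and these had to differ.

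Genes of ribosome production were higher with shDHX15-2 almost throughout. Ribosome biogenesis factors, which assemble and process the ribosomal subunits in the nucleolus, had 42 of 45 members higher and 0 lower, with a median of 0.28. LTV1, a factor of small subunit maturation, had 22.4, 21.5 and 22.7 RPKM with shDHX15-2, 12.6, 12.5 and 12.8 RPKM with shDHX15-1, and 29.02, 30.6 and 29.9 RPKM with shGFP. No library of one group overlapped another, and shDHX15-2 lay between shDHX15-1 and the control, with a hairpin difference of 0.77 ± 0.026 (SE; limma, Benjamini-Hochberg adjusted p = 2.69e-06). RRS1, needed for the large subunit, averaged 23.03, 13.5 and 27.4 RPKM with shDHX15-2, shDHX15-1 and shGFP (difference 0.73). The large subunit assembly factor gene MRTO4 averaged 17.8, 11.6 and 24.2 RPKM (0.57) and the nucleolar helicase gene DDX21 51.6, 35.1 and 71.8 RPKM (0.54). TSR1, HEATR1 and UTP4 were not called, at 0.06, 0.04 and −0.0024. All 45 members passed the filter, and 45 or 44 were called higher under median-centring or edgeR.

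Cytosolic ribosomal protein genes were called higher in 51 of 54 cases and lower in 2, with a median of 0.26. RPL6 averaged 269, 197 and 244 RPKM with shDHX15-2, shDHX15-1 and shGFP, RPS23 163, 124 and 149.8 RPKM and RPS14 109.7, 84.2 and 90.6 RPKM. The stalk protein gene RPLP2 went the other way, at 193, 278 and 280.4 RPKM and a difference of −0.52. After quantile normalisation 38 were called higher and 3 lower. These genes have many processed pseudogenes, so their reads may be shared.

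Among translation factors 20 of 30 were higher and 3 lower (median 0.14). After EEF1G, the largest differences were in EIF4EBP1, the mTORC1-regulated repressor of cap-dependent initiation, which averaged 29.5, 52.6 and 67.00 RPKM (−0.81), in EEF1B2 at 151, 103 and 122 RPKM (0.56) and in EIF4G2 at 131, 96.02 and 120.4 RPKM (0.44). Genes that host small nucleolar RNAs in their introns had 14 of 19 members higher and 1 lower, led by ZFAS1 at 64.2, 39.3 and 37.8 RPKM and SNHG5 at 11.8, 7.39 and 8.85 RPKM with shDHX15-2, shDHX15-1 and shGFP. Entries of RefSeq type snoRNA were called higher in 50 of 164 cases and lower in 5. In poly(A)+ libraries the reads of these entries may come from host transcripts, so they are no separate evidence. Mitochondrial ribosomal protein genes, gathered by symbol after values were seen, had 44 of 82 higher and 12 lower.

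MYC, the transcription factor that drives many of these genes, was not called on the values as deposited. It averaged 54.4, 52.8 and 89.6 RPKM, with a hairpin difference of 0.04 (95% interval −0.01 to 0.09, limma, Benjamini-Hochberg adjusted p = 0.130). Median-centring raised the median difference over all genes by 0.067, which is more than the difference of MYC. Whether MYC is called may therefore depend on scaling. Of the listed MYC targets, MYC included, 20 of 28 were called higher and 3 lower, with a median of 0.23. SRM, the spermidine synthase, had 34.3, 33.9 and 32.4 RPKM with shDHX15-2, 9.48, 10.3 and 10.5 RPKM with shDHX15-1, and 47.97, 49.8 and 48.5 RPKM with shGFP. Both hairpins lay below shGFP and shDHX15-1 far below shDHX15-2, a difference of 1.64 ± 0.041 (SE; limma, Benjamini-Hochberg adjusted p = 1.04e-06). The nucleoside diphosphate kinase genes NME1 and NME2 differed by 0.56 and 0.50, and the telomerase gene TERT, at 0.679, 1.32 and 1.92 RPKM, by −0.46. TERT passed the filter through shDHX15-1 alone and so had to differ; it is 1 of the 3 called lower. The other polyamine genes AMD1 and ODC1 were higher by 0.39 and 0.38, while OAZ1, which holds ornithine decarboxylase in check, was lower (−0.24).

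Promoters of SRM and LTV1 are shown because these genes led their lists, with the E-box CACGTG, the letters bound by MYC and MAX and by other helix-loop-helix factors, in capitals. The windows run from 250 bases before to 50 bases after the RefSeq gene start (GRCh38.p14).
SRM, chr1:11059969-11060268, minus strand: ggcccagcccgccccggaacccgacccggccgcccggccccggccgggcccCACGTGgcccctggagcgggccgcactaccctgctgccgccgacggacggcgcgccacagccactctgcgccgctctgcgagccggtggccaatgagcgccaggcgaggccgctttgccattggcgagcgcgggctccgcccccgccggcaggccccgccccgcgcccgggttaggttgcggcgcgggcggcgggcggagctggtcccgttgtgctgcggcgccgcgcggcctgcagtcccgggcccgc
LTV1, chr6:143843088-143843387, plus strand: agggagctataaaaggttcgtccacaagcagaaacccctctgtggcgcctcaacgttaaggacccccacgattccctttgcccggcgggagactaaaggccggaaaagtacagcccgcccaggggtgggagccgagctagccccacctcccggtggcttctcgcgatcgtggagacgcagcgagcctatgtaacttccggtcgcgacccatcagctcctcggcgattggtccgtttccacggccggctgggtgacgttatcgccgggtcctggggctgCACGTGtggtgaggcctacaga
The match began 199 bases before the start of SRM and 29 bases after that of LTV1. CACGTG, which reads the same on both strands, was present in 16 of 31 ribosome biogenesis promoters (51.6%). It was in 10.9% of the 6646 tested genes with a promoter and 7.28% of all 22114 promoters of this length. Here and below, only gene symbols listed with a single promoter were counted. It was in 13.8% of promoters of genes called higher and 9.58% of those called lower. A match of letters is a description and no evidence of binding.

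Chaperone genes followed the same direction. Of 28 heat shock chaperone genes 21 were higher with shDHX15-2 and 2 lower, with a median of 0.23. HSPA8, the constitutive chaperone HSC70, had 396, 399 and 401 RPKM with shDHX15-2, 179, 179 and 179 RPKM with shDHX15-1, and 486, 498 and 485 RPKM with shGFP. Both hairpins lay below shGFP and shDHX15-1 below shDHX15-2, with a difference of 1.15 ± 0.013 (SE; limma, Benjamini-Hochberg adjusted p = 6.00e-08). HSPH1, a nucleotide exchange factor of HSP70, averaged 22.1, 12.9 and 38.3 RPKM with shDHX15-2, shDHX15-1 and shGFP, the mitochondrial co-chaperonin gene HSPE1 56.1, 35.2 and 75.7 RPKM, and HSP90AA1 260.0, 175 and 311 RPKM. Their differences were 0.73, 0.66 and 0.57. TRAP1, the mitochondrial HSP90, was called lower (−0.30), as was BAG3 (−0.16).

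The chaperonin TRiC, which folds actin and tubulin, and its partner prefoldin had 12 of 14 subunit genes higher and 0 lower, with a median of 0.28. TCP1 averaged 73.95, 51.6 and 103 RPKM and CCT5 48.5, 36.4 and 66.7 RPKM. Chaperones of the endoplasmic reticulum were higher in 14 of 23 cases and lower in 4, among them HSPA5 (BiP) at 29.9, 20.8 and 61.8 RPKM and the calnexin gene CANX at 86.9, 60.5 and 94.8 RPKM. The tubulin gene TUBB averaged 949.5, 519 and 908 RPKM (0.87), while the tubulin gene TUBB2A went the other way at 2.805, 5.64 and 4.46 RPKM (−0.80). Proteasome subunit genes, gathered by symbol after values were seen, were higher in 27 of 38 cases and lower in 2.

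The HSPA8 promoter is shown for the heat shock element, an inverted repeat of GAA. Capitals mark GAANNTTC and TTCNNGAA, each of which reads the same on both strands.
HSPA8, chr11:123062087-123062386, minus strand: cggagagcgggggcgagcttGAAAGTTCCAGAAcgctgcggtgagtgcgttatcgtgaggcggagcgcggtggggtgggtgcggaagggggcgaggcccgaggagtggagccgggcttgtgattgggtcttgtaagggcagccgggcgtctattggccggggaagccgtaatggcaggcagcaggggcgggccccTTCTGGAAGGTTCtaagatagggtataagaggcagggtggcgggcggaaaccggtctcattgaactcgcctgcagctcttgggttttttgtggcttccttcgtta
It held 4 overlapping matches in 2 clusters, beginning 230 and 225 bases and 55 and 50 bases before the start (GRCh38.p14). Of 16 heat shock chaperone promoters 9 held a match (56.2%), against 10.1% of the 6646 tested genes with a promoter and 14.0% of all 22114.

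Hypoxia response genes went in the other direction. Of 26 tested genes of this response outside glycolysis 22 were lower with shDHX15-2 and 0 higher, with a median of −0.39. BNIP3, a mitophagy receptor, had 20.98, 20.99 and 20.5 RPKM with shDHX15-2, 39.95, 40.1 and 39.7 RPKM with shDHX15-1, and 11.9, 12.98 and 12.3 RPKM with shGFP. Both hairpins lay above shGFP and shDHX15-1 above shDHX15-2, by a difference of −0.91 ± 0.018 (SE; limma, Benjamini-Hochberg adjusted p = 3.96e-07). The angiogenic factor gene VEGFA had 5.08, 5.55 and 5.34 RPKM with shDHX15-2, 9.32, 9.09 and 8.96 RPKM with shDHX15-1, and 1.55, 1.29 and 1.64 RPKM with shGFP, in the same order, and differed by −0.68 ± 0.036 (SE; limma, Benjamini-Hochberg adjusted p = 1.21e-05). ADM, the vasodilator peptide adrenomedullin, averaged 0.475, 2.16 and 0.184 RPKM (−1.10) with shDHX15-2, shDHX15-1 and shGFP, and PPFIA4 1.78, 4.69 and 0.488 RPKM (−1.03). DDIT4, an inhibitor of mTORC1, averaged 169.9, 272 and 30.5 RPKM (−0.68). HIF1A, the oxygen-regulated transcription factor subunit itself, was not called on the values as deposited (0.00054), which may also depend on scaling. EPAS1, the paralog of HIF1A, was lower (−0.64). ADM was under 1 RPKM in every shDHX15-2 library. It is the 1 member that passed the filter through shDHX15-1 alone and so had to differ. After median-centring 18 were lower and 2 higher.

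Glycolysis genes, many of them targets of the same response, were lower in 17 of 22 cases and higher in 2, with a median of −0.33. PFKFB4, which sets the level of the activator fructose 2,6-bisphosphate, had 3.39, 3.72 and 3.48 RPKM with shDHX15-2, 10.5, 11.1 and 10.7 RPKM with shDHX15-1, and 3.24, 3.37 and 3.04 RPKM with shGFP. The shDHX15-1 libraries alone stood high, and the difference was −1.38 ± 0.038 (SE; limma, Benjamini-Hochberg adjusted p = 1.39e-06). PFKFB3 averaged 18.5, 32.98 and 11.1 RPKM, the enolase gene ENO2 25.2, 47.7 and 16.6 RPKM and the glucose phosphate isomerase gene GPI 131, 223 and 59.99 RPKM with shDHX15-2, shDHX15-1 and shGFP. Their differences were −0.80, −0.89 and −0.76.

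The BNIP3 promoter is shown with ACGTG, the core letters bound by hypoxia-inducible factors, in capitals on either strand.
BNIP3, chr10:131981874-131982173, minus strand: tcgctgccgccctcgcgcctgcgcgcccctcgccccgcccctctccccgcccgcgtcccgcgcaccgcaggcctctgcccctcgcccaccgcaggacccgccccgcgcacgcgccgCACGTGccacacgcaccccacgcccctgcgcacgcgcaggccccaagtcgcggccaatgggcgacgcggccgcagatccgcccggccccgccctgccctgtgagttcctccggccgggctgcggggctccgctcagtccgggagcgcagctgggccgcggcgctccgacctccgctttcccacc
Its 2 matches overlapped and formed 1 CACGTG, beginning 134 bases before the start (GRCh38.p14), so the same letters also make an E-box. ACGTG or its complement was in 11 of 16 promoters of the hypoxia list (68.8%) and 5 of 11 of the glycolysis list (45.5%), against 28.6% of the 6646 tested genes with a promoter and 21.3% of all 22114. It was also in 21 of 31 ribosome biogenesis promoters (67.7%), which moved in the opposite direction.

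The host transcript of miR-210, a microRNA known for its induction in hypoxia, moved with the list. MIR210HG had 6.34, 6.60 and 6.38 RPKM with shDHX15-2, 10.7, 10.5 and 10.3 RPKM with shDHX15-1, and 2.78, 3.15 and 3.22 RPKM with shGFP, a difference of −0.63 ± 0.028 (SE; limma, Benjamini-Hochberg adjusted p = 6.10e-06). MIR17HG, the host of the miR-17 cluster, averaged 1.86, 1.28 and 1.47 RPKM and was higher with shDHX15-2 (0.33). In all, 2 of 7 tested microRNA host genes were higher and 2 lower, the others called being DLEU2 (0.29) and EVL (−0.15); 4 more in the table were under the filter. Poly(A)+ libraries measure these host RNAs and not the mature forms, whose RefSeq sequences follow with the seed (bases 2 to 8) in capitals.
hsa-miR-210-3p: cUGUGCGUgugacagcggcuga
hsa-miR-17-5p: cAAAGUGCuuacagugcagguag
hsa-miR-20a-5p: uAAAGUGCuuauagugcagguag
The seed is shared by miR-17-5p and miR-20a-5p and differs in miR-210-3p.

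**Figure D4:**
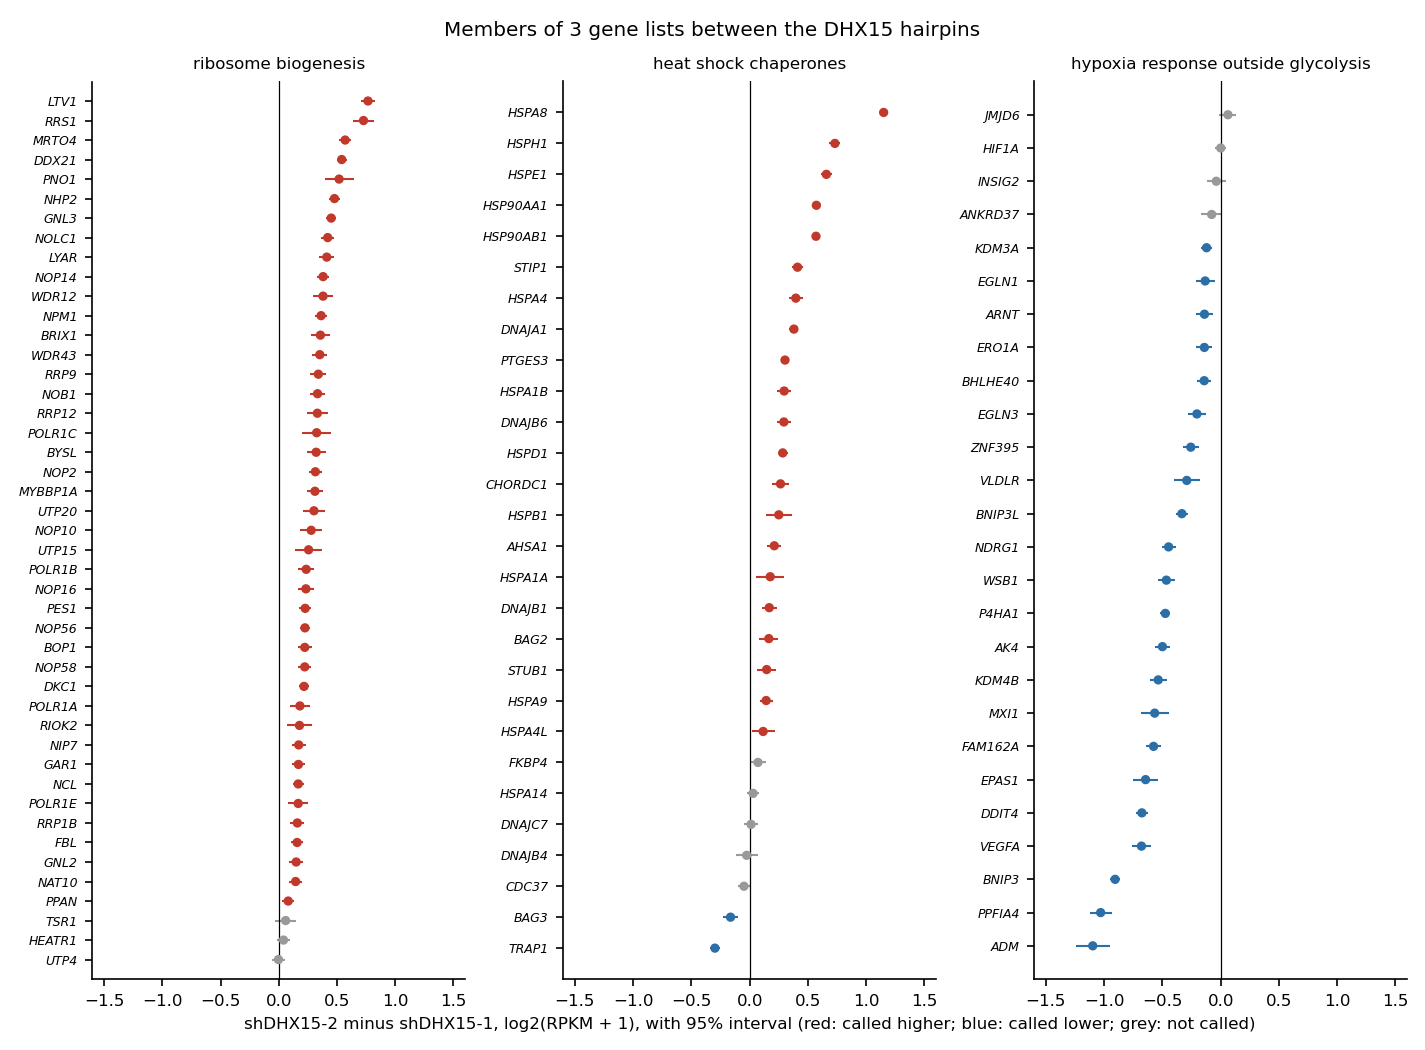
Differences between shDHX15-2 and shDHX15-1 on the log2(RPKM + 1) scale, with 95% intervals, for the tested members of 3 lists. Of the ribosome biogenesis genes 42 of 45 are called higher, of the heat shock chaperones 21 of 28, and of the hypoxia genes 22 of 26 are called lower.

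NOTCH signalling, the main oncogenic pathway of T-ALL, had 5 of 17 tested receptor and target genes higher and 10 lower (median −0.24). HES4, a repressor induced by NOTCH, had 4.57, 3.83 and 3.71 RPKM with shDHX15-2, 16.2, 11.2 and 14.5 RPKM with shDHX15-1, and 3.68, 2.27 and 3.21 RPKM with shGFP. The shDHX15-1 libraries were high and varied most, and the difference was −1.56 ± 0.13 (SE; limma, Benjamini-Hochberg adjusted p = 7.76e-05). NOTCH3 averaged 4.82, 9.26 and 2.95 RPKM with shDHX15-2, shDHX15-1 and shGFP (−0.82), NOTCH1 42.98, 53.1 and 34.02 RPKM (−0.30), the complement receptor gene CR2 3.99, 8.92 and 3.53 RPKM (−0.99) and the mediator gene RBPJ 8.47, 13.9 and 8.24 RPKM (−0.65). DTX1, a regulator of NOTCH, went the other way at 139, 96.9 and 62.2 RPKM (0.51), as did IL7R at 1.52, 0.548 and 1.93 RPKM (0.70), which passed the filter through shDHX15-2 alone and so had to differ. The HES4 promoter is shown with TGGGAA, the core letters bound by RBPJ, in capitals on either strand.
HES4, chr1:1000048-1000347, minus strand: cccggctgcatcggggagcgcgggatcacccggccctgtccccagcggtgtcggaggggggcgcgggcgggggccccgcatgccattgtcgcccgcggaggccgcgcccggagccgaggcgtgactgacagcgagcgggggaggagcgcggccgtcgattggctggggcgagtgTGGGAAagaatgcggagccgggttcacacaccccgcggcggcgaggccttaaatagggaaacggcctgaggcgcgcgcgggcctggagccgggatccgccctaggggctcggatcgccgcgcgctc
The match began 76 bases before the start (GRCh38.p14). TGGGAA was in 2 of 12 NOTCH list promoters (16.7%), against 22.3% of the 6646 tested genes with a promoter and 24.6% of all 22114.

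Genes of T cell identity were mixed. Of 29 surface and receptor complex genes 18 were higher and 9 lower (median 0.17). CD38 averaged 9.76, 19.2 and 22.1 RPKM with shDHX15-2, shDHX15-1 and shGFP (−0.91), CD4 3.54, 5.90 and 2.25 RPKM (−0.60) and CD1C 16.4, 10.7 and 16.4 RPKM (0.57). Lineage transcription factors had 10 of 21 higher and 7 lower; after KLF2 the largest were IKZF3 (Aiolos) at 8.03, 3.87 and 1.75 RPKM (0.89), ID2 (0.64) and LMO2 (0.58). ID2 passed the filter through shDHX15-2 alone and so had to differ. T cell receptor segments had 7 of 51 higher and 23 lower, and are uncertain as families of similar sequence. In the short list of cytotoxic granule genes 5 of 8 were higher and 2 lower. The granule protease gene CTSW averaged 17.3, 8.01 and 0.930 RPKM (1.02), the membrane protein gene NKG7 112, 71.7 and 41.4 RPKM (0.63), and the granzyme gene GZMM 4.49, 9.03 and 1.96 RPKM (−0.88).

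Of 52 defining markers of 5 other cell classes, 7 were in the table. The 3 B cell markers of 11 (CD79A, CD79B and IGLL1) summed to between 108 and 109 RPKM with shDHX15-2, 48.1 and 49.7 with shDHX15-1 and 44.4 and 47.5 with shGFP; CD79A averaged 58.6, 34.7 and 24.4 RPKM (0.74). The summed levels of the other lists were lower, at 6.54 RPKM or under for the myeloid and natural killer markers. The natural killer marker NCR3 differed by 1.10, the myeloid marker CD68 by −0.50 and the endothelial marker PECAM1 by 0.41, and 0 of 10 erythroid markers were in the table. In bulk RNA, more cells of a kind and more RNA per cell cannot be told apart, and the part of such cells in the results was not tested.

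Cell cycle lists were lower with shDHX15-2 on balance, by small amounts. Of 39 replication and S phase genes 4 were higher and 22 lower (median −0.10), led by the licensing factor gene CDT1 (−0.48), the ribonucleotide reductase gene RRM2 (−0.48) and the cyclin gene CCNE1 (−0.48). Of 37 G2 and mitosis genes 10 were higher and 19 lower (median −0.08); after CENPE came the checkpoint kinase gene BUB1B (−0.60), while CDC20 was higher (0.48). After median-centring these counts were 12 and 16 for S phase and 15 and 15 for mitosis. Kinesin genes, gathered by symbol after values were seen, had 1 of 29 higher and 22 lower, and 4 and 20 after median-centring. Of 25 tested p53 target genes 4 were higher and 14 lower, among them PHLDA3 (−0.67) and the cell cycle inhibitor gene CDKN1A, which averaged 5.38, 8.56 and 5.40 RPKM (−0.58).

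Of 26 tested genes of the ATF4 and integrated stress response 5 were higher and 14 lower (median −0.08); after DDIT4 the largest were the serine synthesis gene PHGDH at 27.8, 40.3 and 35.9 RPKM (−0.52) and the asparagine synthetase gene ASNS at 3.38, 5.10 and 2.20 RPKM (−0.48), while PYCR1 was higher (0.45). Of 31 interferon response genes 3 were higher and 18 lower (median −0.17). The RNA sensors OAS2 and OAS3, which react to double-stranded RNA, differed in opposite directions, OAS2 at 10.5, 6.84 and 10.3 RPKM (0.56) and OAS3 at 13.7, 20.4 and 14.6 RPKM (−0.54).

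Splicing genes, the field in which DHX15 works, were mixed, and their balance moved with scaling. Of 51 core spliceosome genes 21 were higher and 10 lower (median 0.06), and after median-centring 34 and 5; the largest differences were in SNRPB2 (−0.53) and the U2 snRNP gene SF3A3 (0.49). SR and hnRNP regulators had 15 of 37 higher and 16 lower, and their median of −0.02 changed sign under 3 scalings; PTBP3 averaged 13.7, 25.5 and 23.95 RPKM with shDHX15-2, shDHX15-1 and shGFP (−0.85). Among 16 tested DEAH-box helicases, DHX15 included, 4 were higher and 4 lower, their median changing sign under 4 scalings, with DHX33 at 12.4, 6.99 and 13.7 RPKM (0.75) and DHX40 at 15.7, 22.5 and 17.3 RPKM (−0.50). Of 23 G-patch protein genes 7 were higher and 8 lower, led by GPATCH4 at 7.18, 4.16 and 9.71 RPKM (0.67) and RBM6 (−0.40). Of 18 genes of small RNA processing, the pathway that hairpins use, 6 were higher and 9 lower: the helicase gene MOV10 averaged 19.4, 28.3 and 17.7 RPKM (−0.53), AGO4 5.45, 7.72 and 6.12 RPKM (−0.44) and AGO2 7.81, 9.80 and 11.3 RPKM (−0.29).

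The balance of directions differed between further metabolic lists. Iron handling genes had 7 of 20 higher and 6 lower, with FTH1, the ferritin heavy chain, at 455, 376 and 448 RPKM (0.27) beside the larger difference of FTL. Sterol synthesis genes had 12 of 25 higher and 3 lower, led by INSIG1 at 56.2, 33.6 and 108 RPKM (0.73). Nuclear genes of oxidative phosphorylation had 15 of 35 higher and 7 lower, and mitochondrially encoded genes 6 of 13 and 3. The fixed histone list, which includes variants made outside S phase, had 10 of 14 higher and 3 lower. The lists not yet described had medians between −0.19 (cell cycle entry) and 0.10 (V(D)J recombination).

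**Figure D5:**
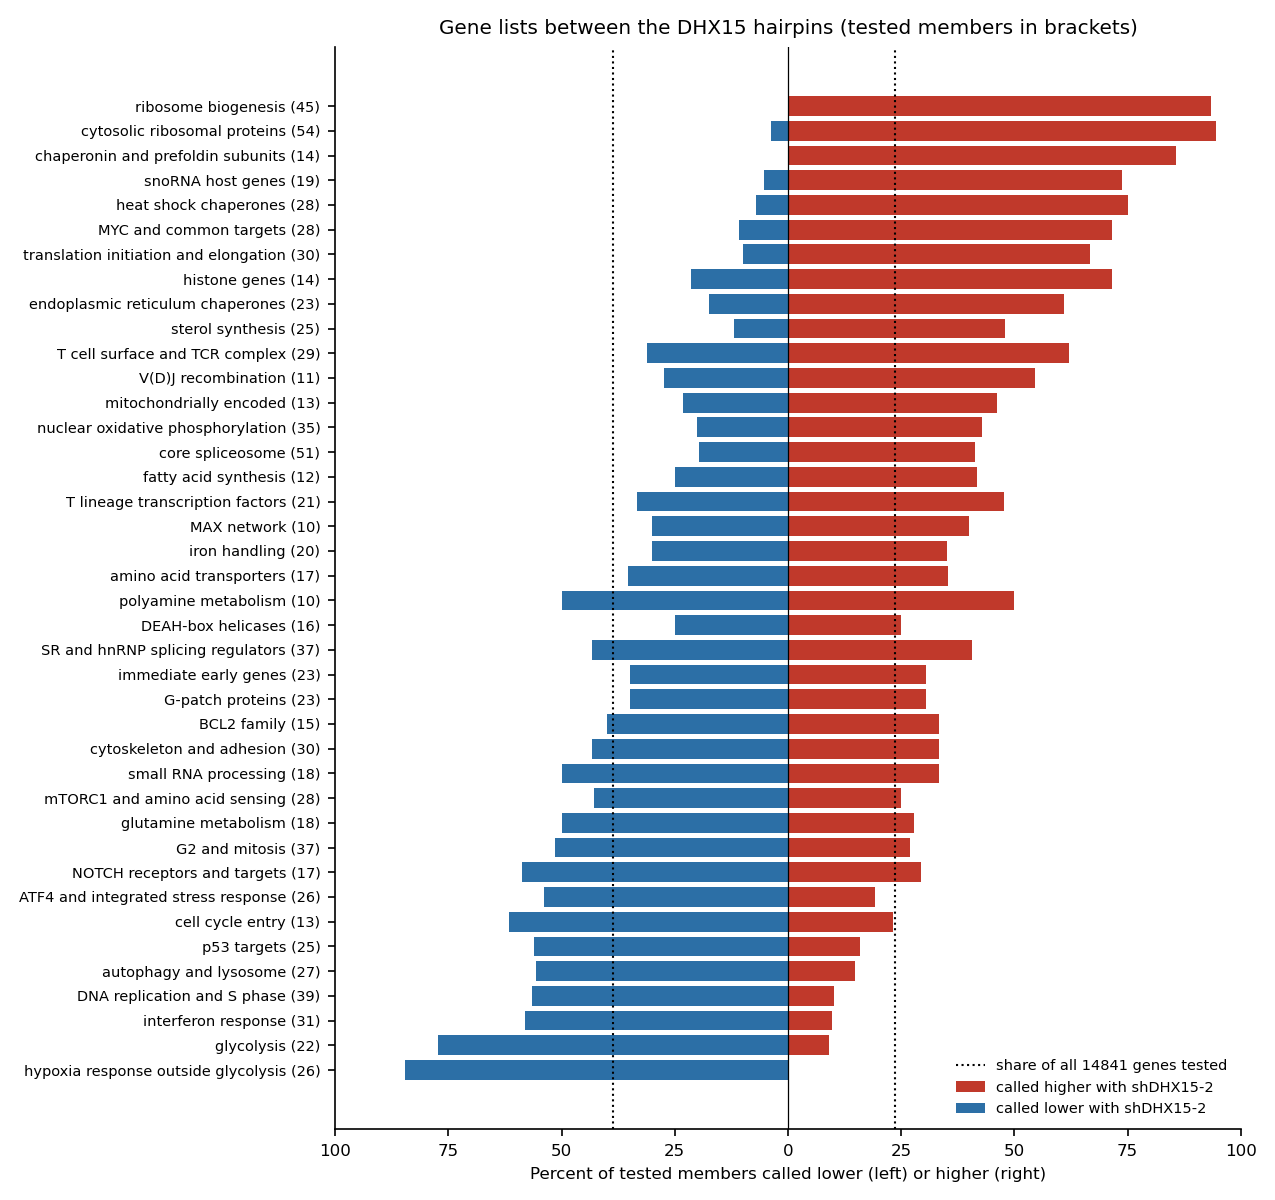
Percent of tested members called higher (red, right) or lower (blue, left) with shDHX15-2 in the lists with at least 10 tested members, against the shares of all 14841 genes (dotted lines, 23.7% and 38.6%). Ribosome biogenesis and cytosolic ribosomal proteins stand at the top, and glycolysis and hypoxia response at the bottom.

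Ciclopirox, an antifungal that chelates iron, was given to the same line at 5 µM in 3 libraries, with 3 libraries of the solvent DMSO, and these samples share no library with the hairpins. Of 16825 genes tested on log2(normalised count + 1), 3956 were higher with ciclopirox than with DMSO (23.5%) and 4201 lower (25.0%) by limma. All 43 ribosome biogenesis genes measured there were lower with ciclopirox than with DMSO (median −1.25), where shDHX15-2 exceeded shDHX15-1 by a median of 0.28. Heat shock chaperones had 21 of 27 genes lower with ciclopirox (median −1.15). In the hypoxia list 21 of 26 were higher with ciclopirox and 2 lower (median 1.48), as were 18 of 20 glycolysis genes, with 2 lower (median 0.87). Not all lists ran opposite to the hairpin difference: of 53 cytosolic ribosomal protein genes 1 was higher with ciclopirox and 2 lower (median −0.04), and of 36 G2 and mitosis genes 3 were higher and 26 lower (median −0.67). Of 38 replication and S phase genes 20 were higher with ciclopirox and 2 lower (median 0.36), and of 24 p53 target genes 24 were higher (median 1.502). MIR210HG differed by 3.66, PFKFB4 by 4.43 and SRM by −1.22 between ciclopirox and DMSO. GLO1 differed there by −0.26 and FTL by 0.19 (limma, Benjamini-Hochberg adjusted p = 0.0353 and 0.197). Across the 10575 genes tested in both tables, the differences of shDHX15-2 minus shDHX15-1 and of ciclopirox minus DMSO had a Pearson correlation of −0.38, given as a description across genes, which are not independent replicates.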

How the data were processed

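Per the labels' protocols, total RNA of CUTLL1 cells was extracted with Trizol and poly(A)+ libraries were read as 150 bp pairs. The submitters' processing notes name STAR 2.7.5c and 2.4.1.7, FastQC 0.11.9, DESeq and DESeq2 1.32.0 and give no role for each. The shRNA table holds RPKM values as deposited by the authors. Dividing out a length per gene and a total per library turned every value into whole reads (tolerance 1e-05), for 19748 genes, with 100 genes at 0 and over 99.7% of reads in listed genes. The ciclopirox table holds a normalised signal deposited by the authors, 100% of whose values were whole multiples of 1 read within 0.01, from 32451469 to 37177509 reads per library.

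log2(RPKM + 1) was tested with limma 3.58.1 (empirical Bayes with trend, two-sided) in R 4.3.3 over the 6 hairpin libraries, on genes with at least 1 RPKM in at least 3, with Benjamini-Hochberg adjustment over 14841 genes and no covariate. This scale understates differences of low genes. The test was checked on simulated data with few changed genes and independent replicates. That setting covers neither a change of most genes nor technical replicates. Recovered reads were tested with edgeR 4.0.16 (quasi-likelihood) and DESeq2 1.42.0 as alternatives. Ciclopirox values were tested with limma on log2(normalised count + 1) for genes with at least 10 in at least 3 libraries (8157 called; edgeR on recovered reads called 8167); this comparison was added after the data were seen. Named genes were DHX15, the 15 largest rises and the 15 largest falls called with a mean of at least 5 RPKM. Receptor segments and replication-dependent histones were left out of these rises and falls. The rule added up to 4 called members of each list with at least 5 tested members, and 8 with all shGFP values between the hairpins. Some are counted and not named. Other genes quoted in the text, among them MYC, HIF1A, EPAS1, NOTCH1, RBPJ, DTX1, TRAP1, BAG3 and UBE2Q1, lie outside this rule. The comparison, the 49 lists, the motifs and this rule were chosen with earlier results of these data known. Of the tested genes 80.24% matched a RefSeq gene (GRCh38.p14), and 6646 had a single promoter in the RefSeq table. Symbols listed with more than 1 promoter were left out of all promoter counts, including the 22114.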

Additional observations from a re-analysis of the deposited data

How the results depend on the processing

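Under 16 alternatives the number of genes called between hairpins ranged from 6437, with a mean of at least 5 RPKM required, to 9923 with no filter. With that higher minimum 3520 genes were lower with shDHX15-2, against 5722, since fewer genes were tested. The genes called with a difference of at least 2-fold numbered 226 with a pseudocount of 0.1, 22 with a pseudocount of 5, 243 with edgeR and 239 with DESeq2, against 67; for edgeR and DESeq2 the cause was not tested. DHX15 changed sign, to 0.027 after median-centring, 0.021 with edgeR and 0.022 with DESeq2, and stayed uncalled. Leaving out 1 library at a time gave 8402 to 8536 calls, 3185 to 3273 higher and 5214 to 5278 lower, 68 to 73 with at least 2-fold, and a DHX15 difference of −0.060 to −0.025. With the replicate number as a block 8922 genes were called, 3409 higher and 5513 lower, and the DHX15 difference was −0.040 (limma adjusted p = 0.308). Same-numbered libraries deviated together with correlations of 0.0319, 0.000995 and 0.0186, and not every library correlated best with its own number. These values show no pairing by number, but with 3 libraries of each hairpin they cannot exclude it. Of the 189 genes other than DHX15 that the naming rule gave, none reversed and 1, AC009121.1, lost its call in 1 alternative. Genes quoted outside the rule are not in this count. Of 44 lists 12 changed the sign of their median in some alternative, none with an absolute median above 0.097.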
